A study of Mus musculus with 2 samples.

Results

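The CD8 T cells of mouse visceral adipose tissue (VAT) were chosen by their own transcript counts, 1 cell barcode at a time. A barcode was selected on at least 200 detected genes, at most 6% mitochondrial counts, a sum of at least 2 unique molecular identifiers (UMIs, each standing for 1 captured transcript) over Cd3d, Cd3e and Cd3g, and at least 1 UMI over Cd8a and Cd8b1. It also had no UMI of Cd4, Csf1r or the interleukin-17 type genes Cd163l1, Il17a and Il23r, and at most 1 of Cd79a. Of 5402 barcodes kept in the obese library 301 met these limits, and of 3015 kept in the caloric restriction (CR) library 135 did, so that 436 cells are described. The levels of these genes fixed the members and are no finding.

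Each library held sorted live CD45+ cells from perigonadal fat of C57BL/6J male mice, with 1 library for each group. Mice of both groups were bought at 6 weeks of age, acclimated for 2 weeks, and then given a diet with 60% of its energy from fat and 0.3% cholesterol for 24 weeks. The obese group was collected at that point, while the CR group received 70% of ad libitum intake of the same diet for a further 2 weeks. The CR library is labelled as life-long restriction, which differs from the 2 weeks that the study's methods and results describe, and the latter is used here. The number of mice behind each library was not given in the sources used here, and a lean library was not analysed here. With 1 library a group, no difference between obese and CR has a replicate check, and no p-value was computed.

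CD8 T cells recognise peptides that other cells display on MHC class I molecules, through a T cell receptor that signals through the CD3 chains with CD8 as its co-receptor. Naive cells circulate through lymph nodes and carry Ccr7 and Lef1, whereas antigen-experienced cells leave them, store granzymes and the granule protein Nkg7, and release chemokines such as Ccl5, which draws other leukocytes. In fat of obese rodents such cells are known to accumulate beside macrophages.

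Depth differed between the libraries. All 5795 obese barcodes had at least 2716 UMIs and all 3562 CR barcodes at least 1870. Members had a median of 3495 UMIs and 1296 genes in obese and 2980 UMIs and 1216 genes in CR, and together 1290048 and 471295 UMIs. Below the obese minimum lay 40.7% of CR members and 60.5% of CR CD8-negative T cells. The same barcode sequence occurred in both libraries 28 times, and 2 obese and 3 CR members were among these. Barcodes with at least 10 UMIs of stromal and vessel genes made up 2.68% of those kept in obese and 18.0% in CR, despite the sort for CD45. Genes for T cell receptor chains and immunoglobulins were not in the gene table. Levels below are UMIs of a gene per 1000000 UMIs of a class (CPM), both summed over its cells. All intervals are 95% and cover counting error only.

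Few members lay at the Cd3 limit of the gate, and more lay at its Cd8 limit. They had a median Cd3 sum of 12 UMIs in obese and 9 in CR, and only 6 and 3 of them had exactly 2. Another 9 and 6 barcodes met every limit except that their Cd3 sum was 1. A Cd8 sum of exactly 1 was found in 24 and 17 members, with a median of 6 and 4. The limit on Csf1r, the receptor that marks macrophages, took out 57 obese and 10 CR barcodes, and those on Cd4 and Cd79a took out 16 and 6, and 10 and 2. Meeting all else, 13 and 6 barcodes had a Cd4 UMI and 7 and 2 had over 6% mitochondrial counts.

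The gate did not read Nkg7 or Ccl5, the remaining markers of these cells. At least 1 UMI of Nkg7 was seen in 93.7% of members in obese and 91.9% in CR, and of Ccl5 in 85.4% and 83.0%. In B cells, which should lack them, Nkg7 was found in 8.52% and 5.58% and Ccl5 in 26.1% and 14.2%, at median depths of 3845.5 and 2809 UMIs. With each cell thinned to 1500 UMIs, Ccl5 was found in 82.4% and 81.5% of members and in 7.95% and 5.58% of B cells. The lists of other cells differed in level. The NK cell list, which holds Eomes, Fcer1g and Tyrobp, summed to 1357 CPM in obese and 849 in CR members. The B and plasma cell list (6 genes in the table) summed to 62.8 CPM in obese and 53.0 in CR members, the gamma-delta T cell list (2 genes) to 0 and 2.12 CPM, and the dendritic cell list (6 genes) to 65.1 and 29.7 CPM. The CD4 and regulatory T cell list summed to 302 and 291 CPM, mostly Ctla4, Icos and Ikzf2, and that of type 2 innate lymphoid cells to 157 and 189 CPM, mostly the shared factors Gata3 and Rora.

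Their share depended on what they were counted against. CD8 T cells were 5.57% of kept barcodes in obese (interval 4.98 to 6.22) and 4.48% in CR (3.77 to 5.28). Without barcodes of at least 10 stromal UMIs the shares were 5.65% and 5.42%. Of all gated T cells, CD8 T cells were 301 of 576 in obese, or 52.3% (48.1 to 56.4), and 135 of 399 in CR, or 33.8% (29.2 to 38.7). The share of T cells was thus lower in CR, while that of all barcodes without stromal ones hardly differed, since gated T cells as a whole were 10.7% of kept barcodes in obese and 13.2% in CR. Among barcodes with at least 2716 UMIs the CR values were 3.36% of kept barcodes and 43.0% (35.8 to 50.5) of gated T cells. That CR T cells without CD8 were the shallower class moves with these shares, and its part in them was not tested.

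Ccl5 (chromosome 11, 83525778 to 83530518, minus strand, GRCm38) was the most abundant effector transcript and separated the members into distinct ranges. In obese 44 members had no Ccl5 UMI, 12 had 1 or 2, 6 had 3 to 5, 13 had 6 to 9 and 226 had 10 or more. In CR the same ranges held 23, 6, 3, 2 and 101 members. Cells with at least 3 UMIs are called Ccl5-high here, and they made up 245 of 301 obese members, or 81.4% (76.5 to 85.6), and 106 of 135 CR members, or 78.5% (70.6 to 85.1). Few cells lay near the limit, among CR barcodes with at least 2716 UMIs the share was 78.8%, and the share did not differ between the libraries beyond its intervals. Within Ccl5-high cells the quartiles were 45, 86 and 137 UMIs per cell in obese and 28, 48 and 72.75 in CR. In Ccl5-low cells the level of Ccl5 was 74.3 CPM (obese) and 86.0 (CR), and B cells had 204 and 42.5.

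**Figure D1:**
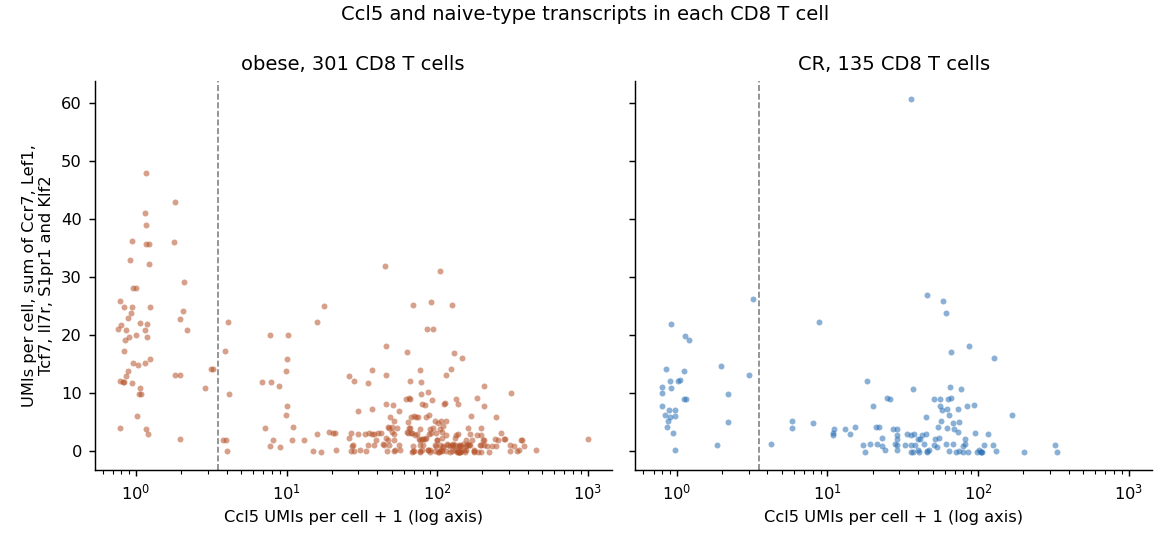
Each point is 1 CD8 T cell, with its Ccl5 UMIs plus 1 on a log axis and its summed UMIs of Ccr7, Lef1, Tcf7, Il7r, S1pr1 and Klf2 on the linear vertical axis, for 301 obese and 135 CR cells with a small jitter on both axes. The dashed line is the limit of 3 Ccl5 UMIs, which 245 and 106 cells reach. The highest naive-type sums in obese lie to its left, while the highest in CR, 61, lies to its right, in a cell with 35 Ccl5 UMIs.

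Promoters of 4 genes are printed here because their genes mark the opposite ends of this range. Each runs from 250 bases before to 50 bases after the start site, 5′ to 3′ on the gene's strand, from RefSeq on GRCm38.p6. Nkg7 lies at chr7:43436888-43437187 (plus strand), Gzmk at chr13:113180916-113181215 (minus), Gzmb at chr14:56262285-56262584 (minus) and Dapl1, a gene of Ccl5-low cells, at chr2:59484403-59484702 (plus). Capitals mark TGTGGT, a core bound by RUNX factors, and TCACACC, a core bound by T-box factors such as Eomes, on either strand. No match of either core overlapped a match of the other in these windows.
Nkg7: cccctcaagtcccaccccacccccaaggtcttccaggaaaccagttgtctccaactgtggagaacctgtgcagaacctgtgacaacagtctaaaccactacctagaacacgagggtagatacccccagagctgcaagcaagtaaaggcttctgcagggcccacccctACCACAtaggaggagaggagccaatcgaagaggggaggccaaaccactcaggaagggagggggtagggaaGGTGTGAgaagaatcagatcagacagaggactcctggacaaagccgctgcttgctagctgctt
Gzmk: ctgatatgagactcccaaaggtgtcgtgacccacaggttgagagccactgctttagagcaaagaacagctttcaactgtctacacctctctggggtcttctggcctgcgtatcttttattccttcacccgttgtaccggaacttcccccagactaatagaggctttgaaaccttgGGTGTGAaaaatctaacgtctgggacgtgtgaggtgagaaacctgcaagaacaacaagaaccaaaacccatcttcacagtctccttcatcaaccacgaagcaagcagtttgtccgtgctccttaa
Gzmb: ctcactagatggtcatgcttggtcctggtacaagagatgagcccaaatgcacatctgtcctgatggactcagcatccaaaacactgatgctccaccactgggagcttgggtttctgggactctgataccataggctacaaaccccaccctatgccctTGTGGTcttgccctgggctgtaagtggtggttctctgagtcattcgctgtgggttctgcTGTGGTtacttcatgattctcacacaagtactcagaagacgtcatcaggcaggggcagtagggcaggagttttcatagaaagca
Dapl1: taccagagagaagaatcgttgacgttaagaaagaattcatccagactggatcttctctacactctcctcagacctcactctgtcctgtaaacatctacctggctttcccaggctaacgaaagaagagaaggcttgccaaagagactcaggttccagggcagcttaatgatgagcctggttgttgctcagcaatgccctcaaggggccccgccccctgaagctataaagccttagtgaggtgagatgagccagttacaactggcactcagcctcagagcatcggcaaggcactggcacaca
The Nkg7 window held the RUNX core at -83 and the T-box core at -13 from the start site, both in reverse complement. That of Gzmk held the T-box core at -75 in reverse complement, and that of Gzmb held the RUNX core at -93 and -34. The Dapl1 window held neither. Over all 32851 promoters given by RefSeq, 16.8% held TGTGGT and 3.98% held TCACACC. Among the 10 genes named below as highest in Ccl5-high cells, 5 of 10 held TGTGGT and 1 held TCACACC, and among those named as lowest, 1 of 8 with an entry held TGTGGT and 0 held TCACACC. A match is a description and not a site in use, and with so few genes the shares are not compared.

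Ccl5-high and Ccl5-low cells differed most plainly in granzymes, lectin receptors and genes of naive cells. Of 2436 genes compared, 147 were at least 2-fold higher in Ccl5-high cells in both libraries (6.03%) and 16 were at least 2-fold lower (0.657%). Ccl5-high cells held 1088046 UMIs in obese and 378259 in CR, against 202002 and 93036 in Ccl5-low cells. To be compared, a gene needed at least 20 UMIs over both groups together and 50 CPM in 1 of them. For a gene found mainly in Ccl5-low cells that minimum of UMIs stands for a higher CPM level, so such genes entered less easily. The counts of higher and lower genes are therefore not compared with each other. Because the split was made on these same cells, all of this is description. The granzymes were the clearest case. Gzmb, which induces apoptosis in target cells, stood at 466 CPM in obese and 161 in CR Ccl5-high cells and at 0 in both groups of Ccl5-low cells, so that it was at least 31.4-fold and 5.001-fold higher in the former. These bounds use a floor of 3 counts over the group at 0. Gzmk, a tryptase-like granzyme, stood at 407 against 4.95 CPM in obese and at 323 against 0 CPM in CR, at least 10.0-fold in the latter. Among Ccl5-high cells 75.9% in obese and 62.3% in CR had a UMI of Gzmk or Gzmb, against 1 of 56 and 0 of 29 Ccl5-low cells, the last of which allows up to 10.3% of cells with a UMI (a floor of 3 cells).

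Ifng, the cytokine interferon-gamma, was at 172 and 177 CPM in Ccl5-high cells and at 0 in Ccl5-low cells of both libraries, at least 11.6-fold and 5.49-fold higher. The activating lectin receptor Klrk1 (NKG2D) was at 272 against 0 CPM in obese and 317 against 10.7 CPM in CR. Klrc1 and Klrc2, its relatives of the NKG2 family, the death ligand Fasl, the T-box factor Eomes, the protease inhibitor Serpina3g and the mitotic survivin gene Birc5 completed the 10 highest. Nkg7 was higher by 3.01 in obese and 2.87 in CR on the log2 scale (intervals 2.75 to 3.31 and 2.45 to 3.34), and Cxcr6, a chemokine receptor of tissue T cells, by 2.41 and 3.08. The regulator Id2 was higher by 1.60 and 1.16. By list, 6 of 10 cytotoxic effectors compared were at least 2-fold higher in both libraries and 0 lower, with a median of 2.52 in obese and 2.44 in CR, against 0.25 and 0.27 over all genes.

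Ccl5-low cells carried the transcripts of naive and recirculating cells. The lymph node homing receptor Ccr7 was at 1010 CPM in obese and 505 in CR Ccl5-low cells, against 65.3 and 52.9 in Ccl5-high cells. Dapl1, whose product is linked to autophagy, was at 599 and 623 against 38.6 and 68.7 CPM. Lef1, a transcription factor of naive T cells, was at 574 and 527 against 63.4 and 55.5 CPM. At least 1 UMI of Ccr7 or Lef1 was found in 54 of 56 and 27 of 29 Ccl5-low cells, and in 30.6% and 22.6% of Ccl5-high cells. Rgcc, Igfbp4, Pdk1, Satb1, Pik3ip1 and Dusp10 were also among the 10 lowest.

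Within the naive list the libraries were not equally far apart. The list's median was -2.37 in obese and -1.23 in CR. Klf2, which drives expression of homing receptors, stood at 3302 CPM in obese Ccl5-low and 640 in Ccl5-high cells, a log2 difference of -2.36 (-2.52 to -2.21). In CR it stood at 1483 and 891 CPM, a difference of -0.73 (-1.03 to -0.44). There 1 Ccl5-high cell held 60 of the members' 475 Klf2 UMIs, which raised the Ccl5-high level. Tcf7, a factor of naive and memory cells named after its values were seen, differed by -1.46 in obese and -0.14 (-0.99 to 0.78) in CR. The exit receptor S1pr1 differed by -2.39 and -1.49 and the interleukin-7 receptor Il7r by -1.45 and -0.98. Cd8b1 itself was nearly level between both kinds of cells, at -0.24 and -0.09.

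**Figure D2:**
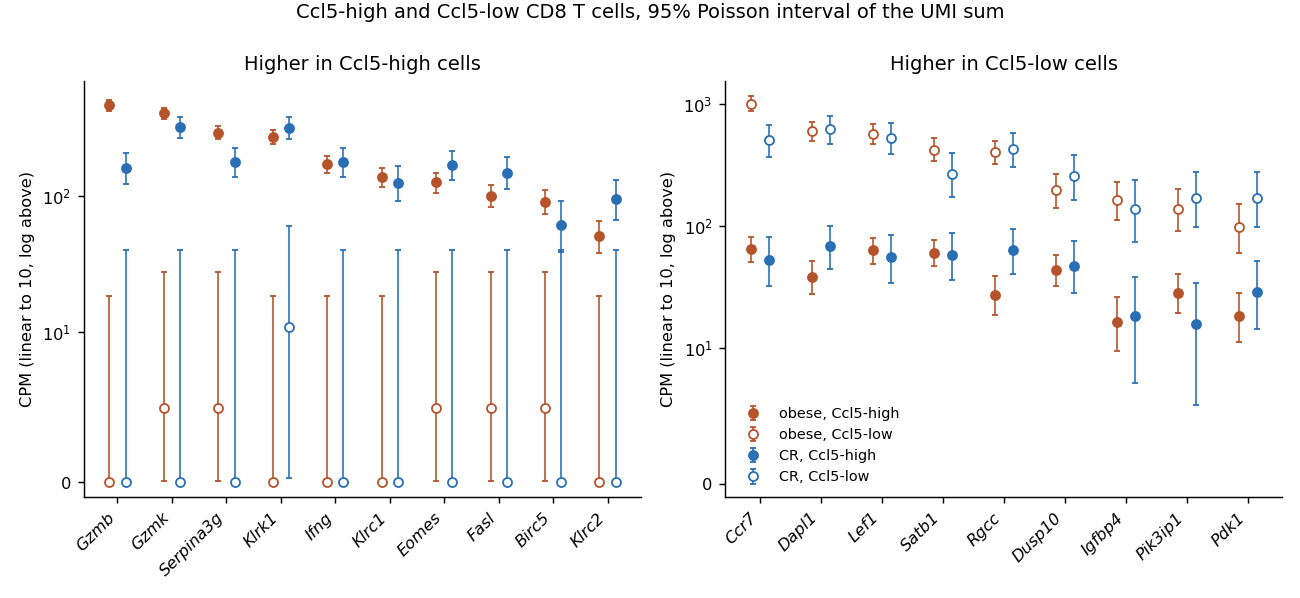
Pooled levels in CPM, on an axis linear to 10 and logarithmic above, of the 10 genes highest and 9 of the 10 lowest in Ccl5-high (filled) against Ccl5-low (open) CD8 T cells, obese in orange and CR in blue, with 95% Poisson intervals of the UMI sums. Gzmb stood at 466 and 161 CPM in the Ccl5-high cells of obese and CR and at 0 in the Ccl5-low cells of both, and Ccr7 at 1010 and 505 CPM in Ccl5-low cells.

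The 2 granzymes divided the Ccl5-high cells further. In obese 36.3% of Ccl5-high cells had both Gzmk and Gzmb, 30.6% had Gzmk alone, 8.98% had Gzmb alone and 24.1% had neither. In CR these shares were 15.1%, 38.7%, 8.49% and 37.7%. The double-positive share was thus lower in CR (8.88 to 23.4) than in obese (30.3 to 42.7) beyond counting error, at lower depth. Pdcd1, which encodes the inhibitory receptor PD-1, was found in 71 of 111 Gzmb-positive and 56 of 134 Gzmb-negative Ccl5-high cells in obese (64.0% and 41.8%), and in 10 of 25 and 25 of 81 in CR (40.0% and 30.9%, with intervals that overlap).

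Gzmb-positive cells of the Ccl5-high range had more inhibitory receptor and chemokine transcripts and fewer of the naive list in obese. There Ccl3, a chemokine for macrophages and T cells, was at 1320 CPM with Gzmb and 464 without, and the inhibitory receptor Lag3 at 426 and 228. The highest cell held 288 of the 691 Ccl3 UMIs with Gzmb, which raised that level. A UMI of Ccl3 was found in 54.1% of obese cells with Gzmb and 27.6% without. Coch, a secreted protein best known from the inner ear, was at 252 and 67.3 CPM in obese and at 249 and 14.6 in CR. The CR level with Gzmb rests mainly on the highest cell, which held 22 of the 26 Coch UMIs there. In CR a UMI of Coch was found in 3 of 25 cells with Gzmb and 3 of 81 without. Xcl1, a chemokine for cross-presenting dendritic cells, went the other way, at 138 and 321 CPM in obese and 115 and 770 in CR. Il7r was at 61.1 and 191 CPM in obese, and Tcf7 at 34.4 and 142. These subsets were formed on the same cells and the values are descriptive.

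Transcripts of dividing cells were seen mainly in the Ccl5-high range. A UMI of Mki67 or Top2a, genes of dividing cells chosen after values were seen, was found in 39 of 301 obese members (13.0%) and 15 of 135 CR members (11.1%). Of these, 38 and 15 were Ccl5-high. In the Ccl5-low cells 1 of 56 and 0 of 29 had one. Members with such a UMI were deeper, with a median of 4321 against 3403.5 UMIs in obese and 3356 against 2975.5 in CR. Top2a alone was found in 12.6% and 11.1% of members and in 6.25% and 3.05% of B cells, or 4.98% and 5.93% against 2.84% and 2.54% after thinning, and the part of free RNA in these shares was not tested. Over the cell cycle list, 11 genes were measured, with a median CR/obese log2 ratio of 0.04 (-0.12 with TMM factors, another scaling), and 1 was past 2-fold, Ccnb2, the mitotic cyclin B2, at 51.2 CPM in obese and 8.49 in CR.

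Members that showed only 1 of the CD8 chains differed in makeup. Both chains (Cd8a at chromosome 6, 71373427 to 71379173, and Cd8b1 at 71322788 to 71337494, both plus strand, GRCm38) were detected in 220 obese and 95 CR members, Cd8a alone in 27 and 6, and Cd8b1 alone in 54 and 34. Conventional CD8 T cells carry the alpha-beta pair, and the alpha chain can also pair with itself. Ccl5-high cells were 26 of 27 and 6 of 6 of those with Cd8a alone, 83.2% and 78.9% of those with both chains, and 66.7% and 73.5% of those with Cd8b1 alone. In obese, cells with Cd8a alone had more transcripts of some lectin receptors and of Xcl1 than those with both chains, with Klrk1 at 553 against 198 CPM, Klrc1 at 305 against 90.3, Klrb1c (NK1.1) at 82.5 against 17.9 and Xcl1 at 850 against 146. Klrd1, the partner chain of Klrc1, was level at 281 against 279 CPM, and Pdcd1 was at 82.5 against 295. Transcripts shared with NK and antigen-presenting cells were also higher in the 27 cells, with Fcer1g at 710 against 454 CPM, Tyrobp at 668 against 348 and Cd74 at 8788 against 4122, and their part in these values was not tested. Only 6 such cells were found in CR, where Xcl1 was at 146 CPM against 498 in cells with both chains.

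Against CD8-negative T cells of the same library, the members carried a short list of effector genes. CD8-negative T cells passed the same gate with no Cd8a or Cd8b1 UMI, and 80 of 262 obese and 77 of 258 CR ones had a Cd4 UMI. Of 2497 genes compared, 14 were at least 2-fold higher in CD8 T cells in both libraries (0.561%) and 21 were lower (0.841%). Ccl5 was at 19941 CPM in obese and 13121 in CR CD8 T cells, against 3459 and 4117 in CD8-negative ones. Nkg7 was at 3824 and 2958 against 856 and 904 CPM, a log2 difference of 2.15 (2.06 to 2.26) and 1.70 (1.58 to 1.84). Gzmb was at 393 (360 to 429) and 129 (99.0 to 166) against 31.8 and 28.2 CPM.

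Coch stood far above the other lymphocyte classes. It was at 133 CPM in obese and 70.02 in CR CD8 T cells, against 0.796 and 1.28 in CD8-negative T cells and 0 in NK and B cells, which puts it at least 20.6-fold and 4.90-fold above NK cells. In CR, 1 cell held 66.7% of its UMIs. Ccl3, Ccl4 (a close relative of Ccl3), the adaptor Sh2d2a, Ctla2a, a protease inhibitor of activated T cells, Eomes and Runx3, the factor that fixes the CD8 lineage, were also higher in both libraries, with log2 differences of 1.10 and 1.13 for Runx3 and of 2.60 and 1.17 for Eomes. Gzmk was higher by 3.41 in obese and by 0.77 in CR, where CD8-negative T cells held it at 150 CPM against 27.9 in obese.

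The genes lower in CD8 T cells included several of helper cells. Sostdc1, a secreted inhibitor of bone morphogenetic proteins, was at 0 in members of both libraries and at 80.4 and 83.4 CPM in CD8-negative T cells, and so at least 34.6-fold and 13.1-fold lower in the members. Cd40lg, the helper signal to B cells, was at 6.20 and 4.24 against 60.5 and 101 CPM. Tnfrsf4 (OX40), a co-stimulatory receptor, was at 96.1 and 153 against 323 and 530 CPM, and the growth factor gene Areg at 30.2 and 29.7 against 87.6 and 180 CPM. In CR, 1 member held 92.9% of the members' Areg UMIs, and 1 held 48.6% of their Tnfrsf4 UMIs. Tnfsf8, Ltb4r1, Ramp1, Cybb, Tmem176a and Gstm1 were the other named genes in this direction, with log2 differences from -1.39 to -3.24.

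Against NK cells, the other killer cells of the tissue, the members had similar levels of some effector genes and lower levels of others. Of 2538 genes compared, 43 were at least 2-fold higher in CD8 T cells in both libraries (1.69%) and 77 lower (3.03%). NK cells (no Cd3 UMI, at least 1 UMI of Ncr1) numbered 112 in obese and 62 in CR. Ccl5 was higher in members by 0.88 in obese and 0.03 (-0.03 to 0.10) in CR, and Nkg7 differed by -0.06 (-0.14 to 0.02) and -0.71. Of 11 cytotoxic effectors compared, 5 were at least 2-fold lower in members in both libraries and 1 higher, with medians of -0.86 in obese and -1.35 in CR. The higher one was Gzmk, at 344 and 259 CPM in CD8 T cells and at 2.14 and 0 in NK cells. Gzma went the opposite way, at 3416 and 4691 CPM in NK cells against 141 and 0 in CD8 T cells. Gzmb was lower than in NK cells by -0.55 in obese and -2.09 in CR on the log2 scale.

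Cd6, Cd5, Themis, Lat, Dapl1 and Fam169b were higher in members of both libraries, most of them parts or regulators of T cell receptor signalling, with Lat higher by 2.84 and 3.25. So was Tnfrsf4, by 3.44 and 3.03, with 48.6% of its CR UMIs in 1 member. The heat shock gene Hspa1a was higher by 4.52 and 4.11, with 64.9% of its CR UMIs in 1 member. The Ly49 and NKR-P1 receptor genes Klra4, Klra8, Klra9, Klra3, Klrb1c, Klrb1a and Klri2 were lower, as were Car2 and Atp1b1, with Klra8 at 5.43 and 2.12 CPM in members and 238 and 396 in NK cells. The inhibitory receptors Pdcd1 and Lag3 were higher in members by 5.13 and 2.31 and by 2.91 and 2.37. Prf1, which encodes the pore former perforin and was named after its values were seen, was low in members, at 23.3 and 29.7 CPM.

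**Figure D3:**
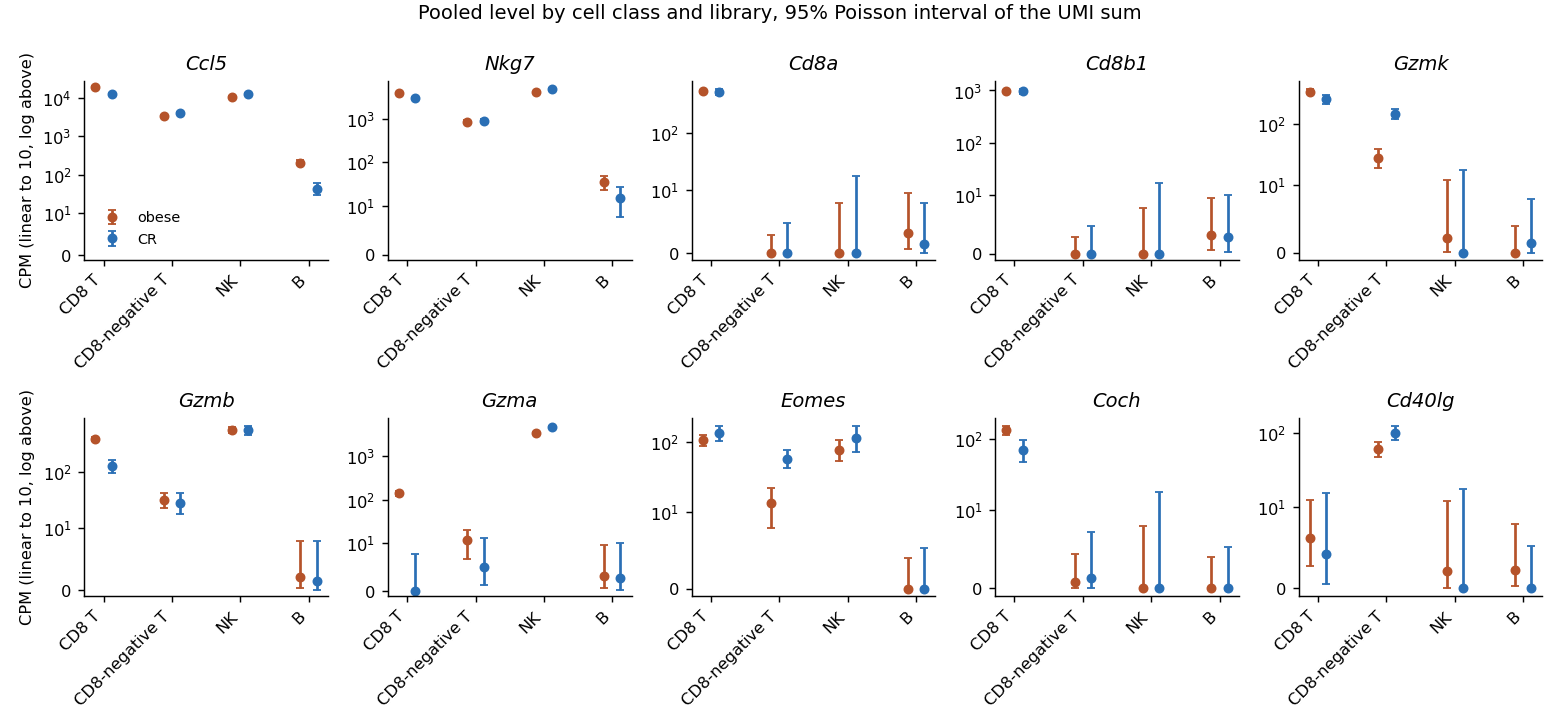
Pooled levels in CPM, on an axis linear to 10 and logarithmic above, of 10 genes in CD8 T cells, CD8-negative T cells, NK cells and B cells, obese in orange and CR in blue, with 95% Poisson intervals of the UMI sums. Gzmk stood at 344 and 259 CPM in CD8 T cells and at 2.14 and 0 in NK cells, and Gzma at 141 and 0 against 3416 and 4691.

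The comparison of CR with obese asks what restriction of food after obesity went along with inside the CD8 T cells. Of 2772 genes compared, 45 were at least 2-fold higher in CR (1.62%) and 28 at least 2-fold lower (1.01%), on log2 of CPM with 5 CPM added to each side, a scale that understates the change of low genes. With TMM factors, another scaling, these counts were 27 and 39, since TMM moves every ratio by -0.10 (log2). The split into higher and lower genes therefore rests on the scaling, and differences are best read against the median of all genes, 0.04. Several granule, chemokine and checkpoint genes named below were lower in CR members and several immediate early genes higher. The MHC class I and glycolysis lists were nearly level, as was the T cell receptor list, which holds the gate's own Cd3 genes.

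Among the chemokine genes, Ccl3 differed most between the libraries. Ccl3 (chromosome 11, 83647844 to 83649355, minus strand, GRCm38) was at 740 CPM in obese (694 to 789) and 93.4 in CR (67.8 to 125), a CR/obese log2 ratio of -2.92 (-3.46 to -2.55). A UMI of it was found in 32.9% of obese and 17.0% of CR members, or in 20.3% and 12.6% after thinning, against 5.68% and 9.14% of B cells before thinning. In obese, 1 cell held 30.2% of the Ccl3 UMIs, and without the 2 highest cells of each library the ratio was -2.64. Ccl4 was at 1678 and 577 CPM (-1.53, -1.73 to -1.36), though it was found in 52.5% and 50.4% of members. In NK cells Ccl3 had a ratio of -0.46 and Ccl4 of 0.42.

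The level of Ccl5 in all members was 19941 CPM in obese and 13121 in CR, a log2 ratio of -0.60 (-0.64 to -0.56), and -0.53 within Ccl5-high cells. In CD8-negative T cells and in NK cells the ratio was 0.25, and the difference between classes was not tested. Xcl1 was higher in CR members, at 197 CPM in obese (173 to 223) and 490 in CR (429 to 558), a ratio of 1.29 (1.05 to 1.58). A UMI of it was found in 22.3% of obese and 33.3% of CR members, or 13.0% and 23.7% after thinning, and without the 2 highest cells of each library the ratio was 1.15. Where a Cd8 sum of at least 2 UMIs or a Cd8b1 UMI was required of members, it was 1.85 and 1.93. Its ratio was -1.42 in CD8-negative T cells and 0.04 in NK cells. Ifng was level at 145 and 142 CPM, as was the lymphotoxin gene Ltb at 450 and 503. Of 15 effector cytokine and chemokine genes, 7 were measured, with 1 past 2-fold higher, 2 past 2-fold lower and a median of -0.03, while the list's sum was 23398 CPM in obese and 15218 in CR.

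Among the cytotoxic genes Gzmb differed most of those found in many cells. Gzmb (chromosome 14, 56258838 to 56262260, minus strand, GRCm38) was at 393 CPM in obese and 129 in CR, a log2 ratio of -1.57 (-2.01 to -1.22), and -1.63 without the 2 highest cells of each library. A UMI of it was found in 36.9% of obese (31.4 to 42.6) and 18.5% of CR members (12.4 to 26.1), or 24.6% and 12.6% after thinning, against 1.14% and 0.508% of B cells. Its ratio was -0.15 in CD8-negative T cells and -0.02 in NK cells. Gzmk was at 344 and 259 CPM, a ratio of -0.40 (-0.71 to -0.12), in 54.8% and 42.2% of members, or 36.2% and 29.6% after thinning. Nkg7 had a ratio of -0.37 (-0.46 to -0.28), while the cathepsin gene Ctsw, at 305 and 295 CPM, and the granule proteoglycan gene Srgn, at 832 and 787 CPM, were nearly level. Of 10 measured genes 8 were below 0 (1275 of 2772 over all genes), and the median was -0.39, or -0.19 within Ccl5-high cells. Past 2-fold lower were 2 of the 10 (28 of 2772 over all genes), Gzmb and Gzma, and Gzma rested on a few cells.

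Gzma rested on a few cells. In obese it had 182 UMIs in 16 of 301 members, with 41.2% of them in 1 cell and at least 10 UMIs in only 3 cells. In CR it was found in 0 of 135 members, which allows up to 2.22% of cells with a UMI (a floor of 3 cells). Against a floor of 3 counts its pooled level was at least 22.2-fold lower. That bound rests on the 3 highest obese cells, which held 85.2% of the UMIs. Without the 2 highest cells the obese level was 49.0 CPM. NK cells held Gzma at 3416 and 4691 CPM. Of the 3 obese cells with at least 10 UMIs, 1 had a UMI of Ncr1, Klrb1c or Klra8, while 19 of all 301 obese members had one of Klrb1c. The part of NK cells in the members' Gzma was not tested.

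Several checkpoint genes, which mark chronically stimulated T cells, were lower in CR members. Of 12 measured genes 9 were below 0 (1275 of 2772 over all genes). The intervals of 3 lay wholly below 0 and that of 1 wholly above (251 and 377 over all genes). Past 2-fold, 1 was lower and 0 higher, with a list median of -0.32 against 0.04 for all genes. Pdcd1 was at 246 CPM in obese (219 to 274) and 138 in CR (106 to 176), a ratio of -0.81 (-1.24 to -0.44), and was found in 43.2% and 27.4% of members, or 22.3% and 14.8% after thinning. Lag3 was at 274 and 144 CPM (-0.90, -1.32 to -0.55). Havcr2, which encodes TIM-3, was found in 44 obese and 2 CR members, at 53.5 and 10.6 CPM. Tox, a factor of exhausted cells, was at 250 and 225 CPM, with an interval of its ratio that includes 0 (-0.48 to 0.17), as had Ctla4 (-0.34, -0.81 to 0.09). Tnfrsf4 had a ratio of 0.64, which was -0.34 without the 2 highest cells of each library, since 1 cell held 48.6% of its CR UMIs. In CD8-negative T cells the list's median was 0.55 and that of Pdcd1 was 0.85. Coch, which had stood apart from the other classes, was found in 66 obese (21.9%) and 7 CR members (5.19%).

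Immediate early genes, which any stimulus and also tissue digestion can switch on within minutes, were the list with the most intervals wholly above 0 in CR. Of 19 measured immediate early and heat shock genes 13 were above 0, against 1497 of 2772 over all genes. The intervals of 11 lay wholly above 0 and those of 2 below, against 377 and 251 of the 2772. Fosb and Dnajb1 were past 2-fold higher, and the list's median was 0.39, or 0.58 within Ccl5-high cells. Fosb was at 66.7 CPM in obese and 204 in CR (1.54, 1.18 to 2.05), Jun at 182 and 369 (1.00, 0.73 to 1.31) and Junb at 2286 and 3673 (0.68, 0.60 to 0.77). The co-chaperone gene Dnajb1 had a ratio of 1.24, or 0.64 without the 2 highest cells, and Hspa1a of 0.97, or -0.18 without them. Other classes moved with several of these. Fosb had ratios of 1.48 in CD8-negative T cells, 0.94 in NK cells and 0.53 in B cells, and Junb of 0.96, 0.40 and 0.87, while the list's medians were 0.28, -0.01 and 0.07. The part of a difference common to all cells of a library in these values was not tested.

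The orphan nuclear receptors of the Nr4a family, which respond to T cell receptor signals, were higher too. The part of a difference common to all cells of a library was not tested for these genes either. Nr4a3 was at 13.2 and 53.0 CPM (1.68, 1.06 to 2.99), Nr4a2 at 151 and 316 (1.04, 0.75 to 1.38) and Nr4a1 at 119 and 166 (0.46, 0.06 to 0.87). Among the 16 measured transcription factors of CD8 differentiation 2 were past 2-fold higher, Nr4a3 and Id3, with 0 lower and a median of 0.35. Id3, a factor of less differentiated cells, was found in 9 obese and 20 CR members, with 71.4% of its obese UMIs in 1 cell. Id2, its counterpart in effector cells, had a ratio of -0.54 (-0.73 to -0.36). Of the residency list, 10 genes were measured with a median of 0.27 and Nr4a2 as the 1 past 2-fold, and the early activation and retention gene Cd69 was at 249 and 369 CPM (0.56, 0.29 to 0.84). The integrin genes Itgae and Itga1, which define resident CD8 T cells in many epithelia and were named after their values were seen, were at 4.65 and 2.12 and at 3.88 and 6.37 CPM, near 0 in both libraries.

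Other lists differed little. The T cell receptor and signalling list had 20 measured genes, 0 past 2-fold and a median of 0.11. This list holds Cd3d, Cd3e and Cd3g, on whose sum the gate chose the members, so their part in it is no finding. That includes Cd3e, at 477 and 323 CPM (-0.56, -0.83 to -0.31). MHC class I presentation had 14 genes and a median of -0.02, with B2m at 6156 and 6090 CPM. Interferon response had 12 genes and 0.16, glycolysis 10 genes and 0.01, integrins and adhesion 10 genes and 0.17, cytokine receptors 10 genes and 0.12, chemokine and sphingosine receptors 8 genes and -0.10, killer lectin-like receptors 5 genes and -0.12, and the naive list 13 genes and 0.24, with 0 past 2-fold in each. Of these, the medians of interferon response and glycolysis were below 0 with TMM factors. Among their members the interleukin-2 receptor chain Il2rb was at 215 and 136 CPM (-0.65, -1.08 to -0.27), and the interleukin-18 receptor Il18r1 at 28.7 and 61.5 (0.98, 0.35 to 1.84).

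**Figure D4:**
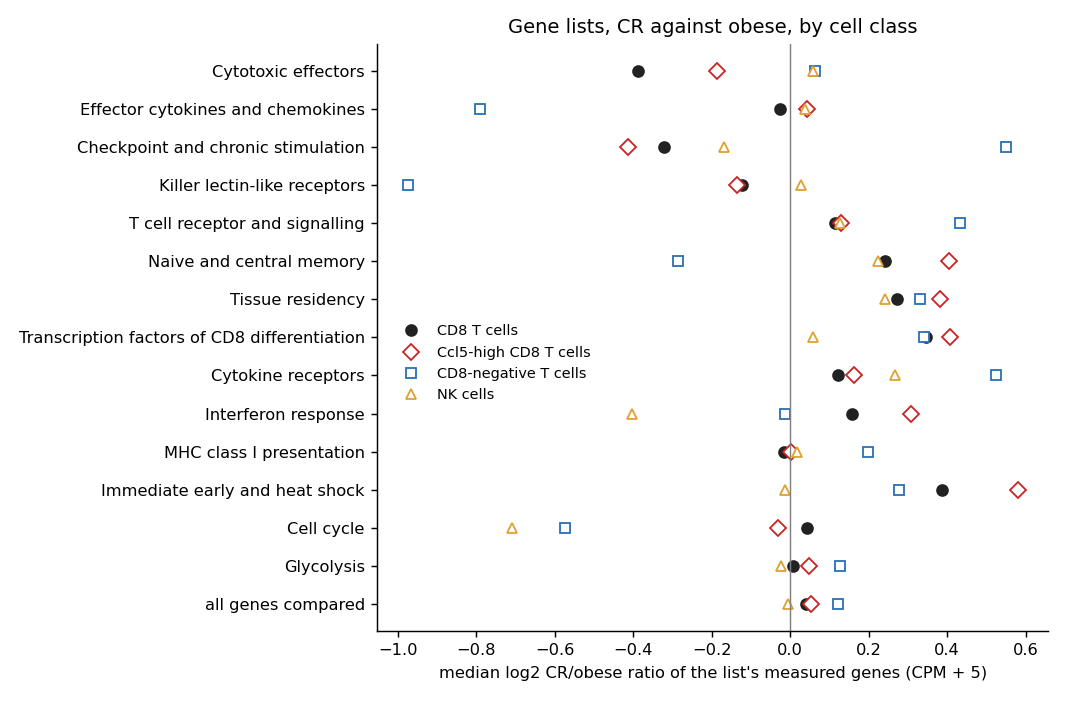
Median log2 CR/obese ratio of the measured genes of 14 lists and of all genes compared, in all CD8 T cells (filled circles), Ccl5-high CD8 T cells (diamonds), CD8-negative T cells (squares) and NK cells (triangles). In CD8 T cells the medians run from -0.39 for cytotoxic effectors and -0.32 for checkpoint genes to 0.39 for immediate early and heat shock genes, with 0.04 for all genes.

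Outside the lists, the genes with the highest and lowest ratios were of mixed kinds. Ptms, which encodes parathymosin, was at 158 and 40.3 CPM in obese and CR members (-1.85, -2.73 to -1.29) and was lower in CR CD8-negative T cells (-1.06) and NK cells (-0.92) as well. Sertad1, a cell cycle regulator, was at 62.8 and 174 CPM (1.40, 1.01 to 1.93) with a ratio of 1.44 in B cells, and the antiproliferative gene Tob1 at 33.3 and 93.4 CPM (1.36). Psmd5, a proteasome chaperone, Esf1 and Gprin3 had ratios of 1.45, 1.36 and 1.35.

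Spp1, which encodes the secreted phosphoprotein osteopontin, was high in a minority of obese members. It was at 726 CPM in obese and 59.4 in CR, a ratio of -3.51 (-4.21 to -3.07), but a UMI of it was found in 40 of 301 and 21 of 135 members (13.3% and 15.6%, or 10.6% and 5.93% after thinning). At least 10 UMIs were held by 16 obese and 0 CR members. Of these 16, 1 had at least 20 macrophage UMIs and 0 had at least 10 stromal UMIs. The highest cell held 29.1% of the obese UMIs, and without the 2 highest cells of each library the ratio was -2.98. Without the limit on Csf1r it was -2.53. In the other lymphocytes Spp1 was higher in CR, with ratios of 2.24 in CD8-negative T cells, 1.78 in NK cells and 1.61 in B cells.

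Several extreme ratios belonged to transcripts of other cell types and moved alike in cells that should lack them. Cma1 and Tpsb2, proteases of mast cells, had ratios of 2.66 and 2.61 in members, and Cma1 of 3.04, 1.87 and 2.33 in CD8-negative T, NK and B cells. Fabp4, a lipid carrier of adipocytes, endothelium and macrophages, was at 124 CPM in obese and 764 in CR and was found in 25.9% and 85.2% of members, against 33.0% and 82.7% of B cells. It was the 1 gene past 2-fold among 7 measured in the lipid handling list, whose median was 0.23. Retnla, a product of tissue macrophages, had a ratio of -3.71 in members and -2.93 in B cells. The macrophage list summed to 12111 CPM in obese and 5566 in CR members, with 4 of 11 measured genes past 2-fold lower, all of them of MHC class II (Cd74, H2-Aa, H2-Ab1 and H2-Eb1), and a median of 0.10. In CR, 1 cell held 61.3% of the Cd74 UMIs, and without the 2 highest cells of each library the ratios of these 4 genes were -2.62, -2.69, -2.45 and -2.51. At least 20 macrophage UMIs were found in 15 obese and 2 CR members.

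The NK cell list had a median of -0.62 over 5 genes and Gzma as its 1 gene past 2-fold, and the haemoglobin list summed to 2584 and 473 CPM with 3 of 3 past 2-fold lower, of which 0 stayed so without the 2 highest cells of each library (Hba-a1 -0.55, Hba-a2 -0.70, Hbb-bs -0.42). The stromal and vessel list summed to 819 and 700 CPM with Clec3b and Mgp of 6 measured genes past 2-fold lower and a median of -0.29. This rested on a few obese cells: without the 2 highest cells of each library the ratios of Mgp, Dcn, Col3a1, Igfbp7 and Col1a2 were 2.43, 1.76, 1.33, 1.22 and 0.69. In CD8-negative T, NK and B cells the list's median was 0.58, 2.18 and 0.82. In obese 3 members held the high counts of Pi16, Igfbp6 and Clec3b, genes of fibroblast precursors, and all 3 had at least 10 stromal UMIs. Without the 2 highest cells of each library the ratios of these genes went from -2.70, -2.07 and -1.96 to -0.32, -0.55 and 0.21. The part of free RNA and of mixed droplets in the members' other ratios was not tested.

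**Figure D5:**
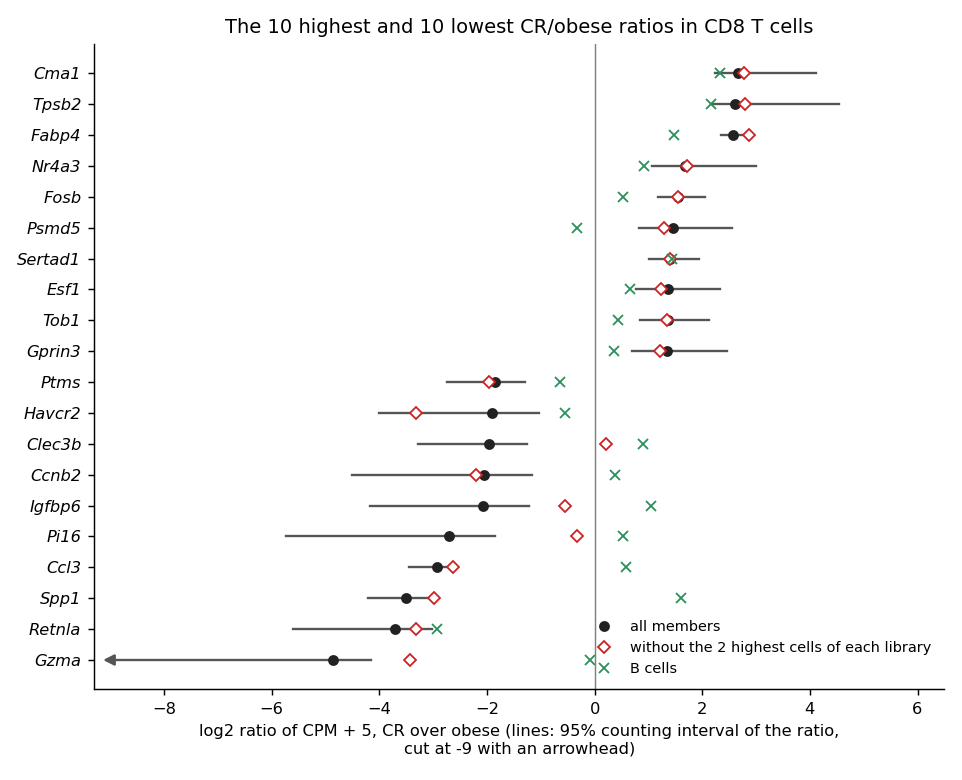
The 10 highest and 10 lowest log2 CR/obese ratios in CD8 T cells (black points) with 95% counting intervals, the same without the 2 highest cells of each library (red diamonds) and the ratio in B cells (green crosses). Ccl3 stays at -2.64 without its highest cells, Clec3b moves to 0.21, and Cma1, Tpsb2 and Retnla have B cell ratios of 2.33, 2.16 and -2.93 on the same side of 0 as those of the members, while the point of Gzma rests on the 5 CPM added, since CR members had 0 UMIs.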

How the data were processed

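Single-cell 3′ libraries of CD45+ VAT cells were used, 1 from obese and 1 from CR mice. The authors deposited filtered UMI counts per gene and barcode (27998 genes) made with Cell Ranger against mm10, and no column was left unmatched. Members, gene lists and comparisons were chosen with earlier results of these data known. For each class, the counts of all its cells were pooled and scaled to their total (CPM). Genes with at least 20 UMIs over both classes together and 50 CPM in 1 of them were compared as log2 of CPM plus 5, with 2-fold as the limit. Intervals are exact (Poisson, Clopper-Pearson, or conditional for a ratio of counts, the last without the 5 CPM added). B cells had at least 3 Cd79a UMIs, and NK cells at least 1 of Ncr1, with no Cd3 UMI. Thinning drew 1500 UMIs per cell (seed 1), which left out 0 cells. Doublets were not called. The limits on Csf1r and Cd79a take out some, and an upper limit on UMIs of 3 median absolute deviations was an alternative. Named genes were the gate's genes and markers, the 10 highest and 10 lowest of each comparison with an interval that excludes no difference (outside ribosomal, mitochondrial, haemoglobin and immunoglobulin genes, gene models and genes that define the classes), and in each of 26 lists the 4 with the largest CR/obese ratio and the 6 with the highest level. A gene that this rule names and a treatment that both groups shared are not reported here. Gene positions are from GENCODE on GRCm38. Scripts were tested on simulated data and ran in Python 3.11.15 (pandas 2.3.3, scipy 1.17.1, matplotlib 3.10.9, numpy 2.4.6). Alternatives changed the gate, filters, pseudocount and scaling. Those on the obese minimum of UMIs, on Ccl5-high cells alone and without the 2 highest cells were added after the data were seen.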

Additional observations from a re-analysis of the deposited data

Results flagged for a closer look

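For 3 named genes the CR/obese ratio was past 2-fold one way in CD8 T cells and past 2-fold the other way in CD8-negative T or NK cells, with intervals that exclude no difference, in each case with 1 library a group, so that the difference was not tested. Spp1 had a log2 ratio of -3.51 in CD8 T cells and of 2.24 in CD8-negative T cells and 1.78 in NK cells. Xcl1 had a ratio of 1.29 in CD8 T cells and of -1.42 in CD8-negative T cells. Mgp, a matrix protein of stromal cells, had a ratio of -1.002 in CD8 T cells and of 2.66 in NK cells, with 90.6% of the obese UMIs of CD8 T cells in 1 cell.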

How the results depend on the processing

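Of 378 values of comparisons under the alternatives 346 stayed within their limits and 32 did not. The limit was counting error for shares and 1.5 times for counts. For list medians it was the median half-width of the intervals of single genes, which is wide for a median over several genes. The median of no gene list was among the 32, but 26 of 216 list medians, of 7 of 12 lists, lay on the other side of 0: glycolysis, effector cytokines, interferon response, cell cycle, naive, transcription factors and MHC class I. The obese share of gated T cells was 45.6% with a Cd3 sum of at least 1, 47.6% with Cd8b1 required, 48.0% without the Csf1r limit and 46.9% after thinning, and the CR share was 43.0% from the obese minimum of UMIs upward. The obese share of kept barcodes was 6.59% without the Csf1r limit and 4.57% after thinning, and the CR share 3.36% from the obese minimum upward, 3.62% after thinning and 5.42% under 10 stromal UMIs. The count of genes higher in CR was 15 with 20 CPM added, 86 without ribosomal, mitochondrial and haemoglobin genes in the totals, 27 with TMM factors, 17 with at least 50 UMIs and 100 CPM, 219 with at least 10 UMIs and no CPM minimum, and 71 in Ccl5-high cells alone. The count lower in CR was 53 without the Csf1r limit, 53 without those genes in the totals, and 18 and 253 with the strict and loose minimum. Against CD8-negative T cells the count of higher genes was 9 with 20 CPM added, 7 with means of per-cell CPM and 25 with the loose minimum, and that of lower genes was 69 with a Cd3 sum of at least 1, 13 with 20 CPM added, and 6 and 62 with the strict and loose minimum. Between Ccl5-high and Ccl5-low cells the higher genes numbered 68 and 296 with the strict and loose minimum, and the lower ones 46 without those genes in the totals and 7 and 33 with the strict and loose minimum. The minima change how many genes are compared. The cause of the other shifts was not tested.

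Of 643 values, for 34 of 227 named genes, 583 stayed, 57 moved and 3 with a ratio past 2-fold turned direction. Without the 2 highest cells of each library, 19 of 219 named genes lay on the other side of 0. Mgp had a ratio of 0.22 with means of per-cell CPM and 2.43 without the 2 highest cells, and Clec3b of 0.21 without them. No paired analysis was possible because the results come from no test, with 1 library a group. Leaving out cells with a Trdc UMI was not run, since T cell receptor genes are not in the gene table used here. Genes below a few CPM cannot be compared at this depth, since 3 counts in all CR members stand for 6.37 CPM and in obese members for 2.33 CPM.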
